A study of Mus musculus with 107 samples.

Results

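Motor neurons of the mouse brainstem were compared with cholinergic neurons of the mouse spinal cord, both profiled by translating ribosome affinity purification (TRAP) and Affymetrix expression arrays. The members are the arrays labelled as TRAP RNA of brainstem motor neurons and those labelled as TRAP RNA of spinal cord cholinergic neurons, 3 of each, which makes 6 arrays, with 101 others in the series, and 2 of its 24 TRAP populations. A further 3 arrays hold unbound RNA of brainstem and 3 hold unbound RNA of spinal cord, the RNA left behind when tagged ribosomes were pulled down. All 12 arrays come from one BAC transgenic mouse line, DW167, in which regulatory sequence of Chat drives the ribosome tag, so both tissues carry the same transgene and no array is from an untagged animal. Any Chat-expressing cell of the dissected tissue can contribute, and the labels give no age, no sex and no number of animals pooled. The design text calls the 3 TRAP replicates of a population independent, but errors and p-values here rest on a spread that limma moderates over all arrays of the series, not on these 6 alone.

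Motor neurons are the cholinergic neurons that leave the brain or spinal cord to drive muscle. Those of the brainstem lie in cranial nerve nuclei and include branchial, visceral and somatic types, whereas those of the spinal cord form columns for limb, trunk and autonomic targets. Hox genes are expressed in nested domains along this axis, and factors of the Isl, Lhx, Mnx and Phox families specify the classes during development. Cholinergic interneurons are present in both tissues.

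Levels are log2 intensities after each group was shifted by 1 constant to equalise 18 biotinylated control probe sets. A gene was tested where its mean was at least 6 in one of the TRAP groups and where TRAP exceeded unbound RNA in at least one of the tissues. A call needed a p adjusted by Benjamini-Hochberg below 0.05, a difference of 2-fold or more, and TRAP above unbound RNA on the higher side. A fold is written as "at least" where the lower group lies under 6, which then stands in for it. In bulk RNA, fewer cells of a type and less RNA per cell cannot be told apart.

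Arrays of a tissue with the same number are called a preparation here. The labels do not say whether TRAP and unbound arrays of the same number share a source. Brainstem preparation 1 stood apart from preparations 2 and 3. Its TRAP array correlated with the TRAP arrays 2 and 3 at r = 0.970 and 0.969 across the genes tested, against 0.997 between arrays 2 and 3. In the brainstem, 17 genes were lower by at least 2 log2 units in preparation 1 in both TRAP and unbound RNA and 5 were higher, out of 10405 genes with a mean of at least 6 in a brainstem group. Among the 17 were 5 of the 10 Hox genes compared. Slc6a3, the dopamine transporter, was one of the 5 higher genes, with 8.23 in TRAP array 1 against 4.72 and 4.76 in arrays 2 and 3. In unbound RNA it had 10.58 in array 1 against 6.42 and 3.65. Results that rest on preparation 1 are therefore given with and without it.

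The quality of the RNA also differed between the TRAP groups. The signal of the 3′ probe set of Gapdh exceeded that of its 5′ probe set by 2.45 to 2.66 log2 units in brainstem TRAP arrays, against 3.68 to 3.85 in spinal TRAP arrays. For Actb the gap was 3.47 to 4.03 log2 units in brainstem TRAP arrays and 5.04 to 5.15 in spinal TRAP arrays. In unbound RNA the Gapdh gaps were closer, at 2.27 to 2.29 in brainstem and 2.05 to 2.68 in spinal cord. The upper quartile of the scaled arrays was 7.37 to 7.40 in brainstem TRAP and 6.55 to 6.59 in spinal TRAP. The part of RNA quality in the differences reported below was not tested.

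The markers given for the 2 neuron groups separated them to different degrees. Tbx20, a T-box transcription factor of cranial branchial and visceral motor neurons, had 8.57, 8.96 and 8.83 in brainstem TRAP, against 2.69 in each spinal TRAP array. The brainstem arrays were all high, with an SD of 0.20, and the spinal arrays all lay near the bottom of the scale. The difference was 6.10 ± 0.05 log2 units, at least 6.90-fold (limma adjusted p = 3.4e-79, 3 arrays per group). Here and below, the SE of a difference uses the spread moderated over all arrays of the series. Unbound brainstem RNA held 2.48 to 2.81, so the signal lay in the purified fraction. These are levels of the probe set with the highest mean. The other probe sets of Tbx20 stayed under 6, with means of 4.31 and 2.34 in brainstem TRAP and 2.69 in spinal TRAP. Mnx1, a homeodomain factor of spinal motor neurons, had 3.78, 6.91 and 7.40 in brainstem TRAP, against 7.89, 7.85 and 7.85 in spinal TRAP. It was called lower in brainstem, by a difference of -1.84 ± 0.27 (adjusted p = 1.1e-08, 3.57-fold), but preparation 1 decided this: without it the difference was -0.71 and the gene was not called. The SD of the brainstem TRAP arrays of Mnx1 was 1.97, and the fit on the 6 TRAP arrays alone did not call it either. Prph, the peripheral neurofilament protein peripherin, had 13.48, 13.17 and 13.37 in brainstem TRAP and 13.07, 12.97 and 13.14 in spinal TRAP. Its arrays did not overlap, but the difference of 0.28 ± 0.08 did not reach 2-fold.

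Both TRAP groups thus held motor neuron RNA far above unbound RNA for Prph, which had 7.99 to 8.14 in unbound brainstem and 8.95 to 9.78 in unbound spinal cord. Chat, choline acetyltransferase and the source of the driver, could not serve as a check. Its 1 probe set read 2.34 in brainstem TRAP and 2.74 in spinal TRAP, identical within each group, and its mean reached 6 in 0 of the 24 TRAP populations. Slc18a3, the vesicular acetylcholine transporter, which lies within the Chat locus, was at 13.45 ± 0.26 in brainstem TRAP and 11.90 ± 0.30 in spinal TRAP (SD, n = 3).

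**Figure D1:**
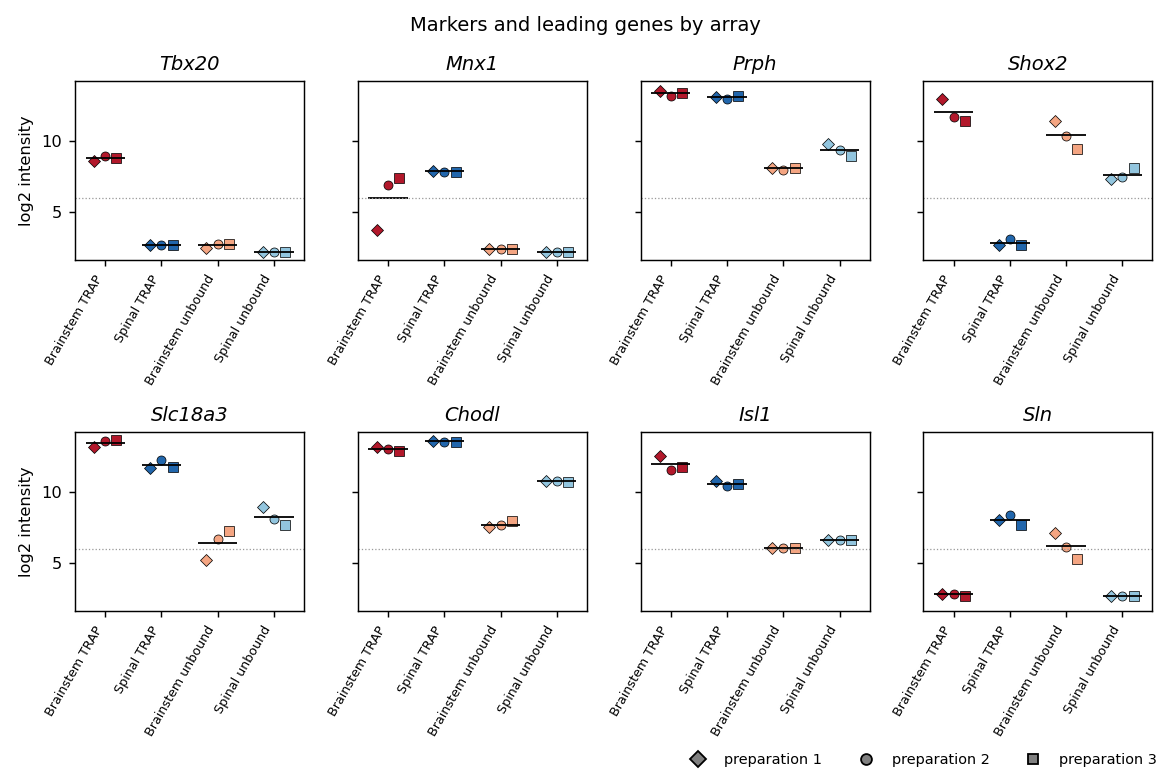
Log2 intensity of 8 genes in every array, by group from left to right brainstem TRAP, spinal TRAP, brainstem unbound and spinal unbound RNA. Symbols mark the preparation number, bars the group mean and the dotted line the minimum mean of 6. Tbx20 and Shox2 are high in all brainstem TRAP arrays and near 3 in all spinal TRAP arrays, Mnx1 is low in brainstem preparation 1 alone, and Sln is high in spinal TRAP.

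The promoters of 4 transcription factor genes are shown, of which 3 encode homeodomain proteins and the fourth a T-box protein. Of these, the call of Mnx1 between the tissues rested on preparation 1. They are RefSeq windows of 300 bases on build GRCm38.p6, running from 250 bases before to 50 bases after the start of transcription, written 5′ to 3′ along the gene. Capitals mark TAAT on either strand (TAAT or ATTA), the core recognised by most homeodomain proteins.
Tbx20, chr9:24774254-24774553, minus strand: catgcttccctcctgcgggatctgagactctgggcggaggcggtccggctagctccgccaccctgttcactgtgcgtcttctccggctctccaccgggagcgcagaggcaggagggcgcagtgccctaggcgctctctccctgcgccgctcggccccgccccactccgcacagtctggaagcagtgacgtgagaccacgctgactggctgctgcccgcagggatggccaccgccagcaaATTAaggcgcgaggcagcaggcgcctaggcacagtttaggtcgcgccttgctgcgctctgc
Shox2, chr3:66981722-66982021, minus strand: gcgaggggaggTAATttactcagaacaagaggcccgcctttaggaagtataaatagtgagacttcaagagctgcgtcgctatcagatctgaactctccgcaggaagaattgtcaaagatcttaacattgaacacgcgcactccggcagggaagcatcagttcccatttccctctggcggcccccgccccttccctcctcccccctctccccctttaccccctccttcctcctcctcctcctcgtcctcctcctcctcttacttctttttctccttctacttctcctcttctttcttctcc
Mnx1, chr5:29478421-29478720, minus strand: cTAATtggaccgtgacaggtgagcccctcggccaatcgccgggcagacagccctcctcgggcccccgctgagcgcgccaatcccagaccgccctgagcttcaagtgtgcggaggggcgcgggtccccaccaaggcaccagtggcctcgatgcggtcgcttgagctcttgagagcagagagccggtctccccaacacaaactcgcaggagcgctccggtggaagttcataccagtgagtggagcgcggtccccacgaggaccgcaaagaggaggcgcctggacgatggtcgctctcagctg
Hoxa9, chr6:52227321-52227620, minus strand: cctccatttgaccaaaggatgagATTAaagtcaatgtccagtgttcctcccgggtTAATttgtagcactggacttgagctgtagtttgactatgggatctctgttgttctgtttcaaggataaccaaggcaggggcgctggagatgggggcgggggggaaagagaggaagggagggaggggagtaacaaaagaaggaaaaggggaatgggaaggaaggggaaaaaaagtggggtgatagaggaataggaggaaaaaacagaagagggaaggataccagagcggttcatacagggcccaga
Tbx20, Shox2 and Mnx1 each held 1 match, at base 240, base 12 and base 2 of the window, and Hoxa9 held 2, at bases 24 and 56. Of all 32851 promoters in the table, 58.0% held at least 1, so the match does not set these genes apart.

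Of 4101 genes tested between the TRAP groups, 1586 were called higher in brainstem (38.7%) and 51 lower (1.24%), which is 39.9% in either direction. This split changed with the scaling. Under control probe scaling the median difference of the genes tested was 0.81 log2 units in TRAP RNA, against 0.07 in unbound RNA, and the upper quartiles above show the same offset. With no further scaling the median TRAP difference was 1.13, and 2455 of 4265 genes were called higher and 23 lower. Quantile normalization gives all arrays the same distribution of values. With quantile normalization over all arrays the median difference was -0.0013, and 545 of 6173 genes were called higher (8.83%) and 513 lower (8.31%). Both scalings called 370 genes higher and 51 lower. A difference near 0.81 is therefore that of the typical gene, and the text states where a call holds under both scalings. Of the 4101 genes, 3101 had non-overlapping arrays with brainstem higher (75.6%) and 167 with brainstem lower (4.07%).

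In unbound RNA, 897 of 10573 genes were called higher in brainstem (8.48%) and 765 lower (7.24%). The unbound groups hold the rest of each dissected tissue. Gabra6, a GABA receptor subunit of cerebellar granule cells, had 10.84, 11.31 and 10.47 in unbound brainstem, against 2.21 in every unbound spinal array. Ttr, the transthyretin of choroid plexus, had 15.41, 15.86 and 15.91 in unbound brainstem and 2.23, 2.21 and 4.93 in unbound spinal cord. Unbound brainstem thus held markers of cerebellar neurons and choroid plexus.

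**Figure D2:**
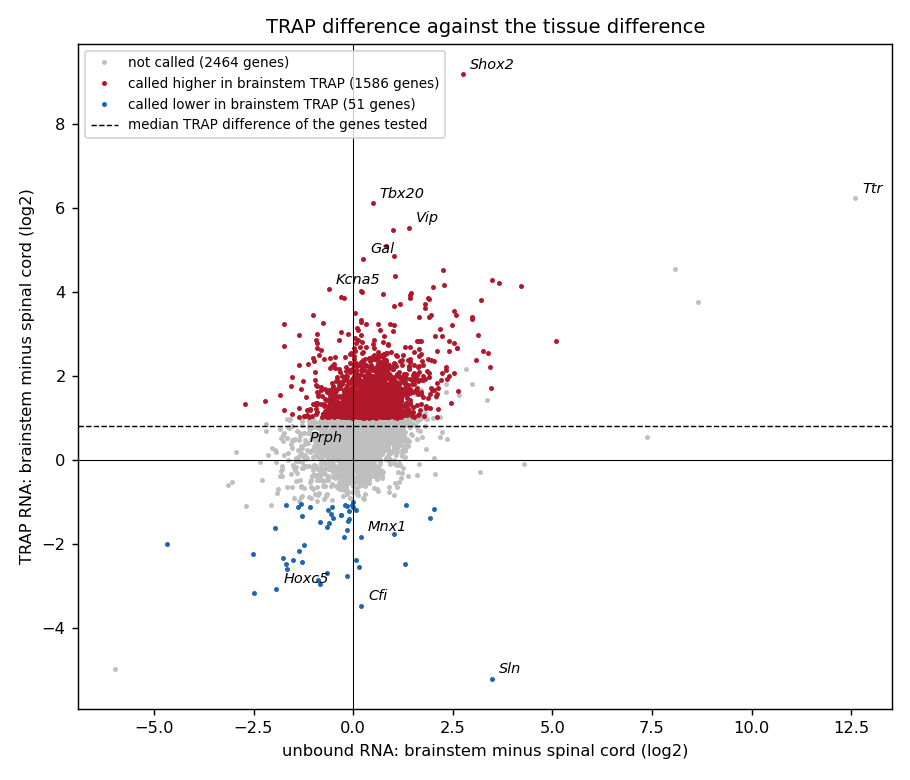
Brainstem minus spinal cord difference of each of the 4101 genes tested, in unbound RNA (horizontal) and in TRAP RNA (vertical), in log2 units. Red points are the 1586 genes called higher, blue points the 51 called lower, and the dashed line the median TRAP difference of 0.81. Shox2 and Tbx20 lie at the top and Sln at the bottom right, higher in unbound brainstem yet lower in brainstem TRAP.

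The largest called difference was that of Shox2, a homeodomain transcription factor. It had 12.95, 11.70 and 11.43 in brainstem TRAP, against 2.72, 3.12 and 2.72 in spinal TRAP. The difference was 9.18 ± 0.27 log2 units (SE, adjusted p = 4.8e-44), at least 65.3-fold, and was 8.72 without preparation 1. Unbound RNA differed in the same direction, with 11.41, 10.36 and 9.45 in brainstem and 7.37, 7.48 and 8.08 in spinal cord. Preparation 1 was the highest brainstem array in both fractions.

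Tbx20 came next, then Vip, described with the peptides, and Nr4a2, an orphan nuclear receptor, with Gcnt2, Mbl2 and Gal after them. Nr4a2 had 6.57, 8.95 and 9.09 in brainstem TRAP, against 2.69, 2.87 and 2.69 in spinal TRAP. Its unbound levels were 7.75 to 8.49 in brainstem and 6.52 to 7.87 in spinal cord, so in brainstem TRAP exceeded unbound RNA by little. Without preparation 1 the difference of 5.46 was 6.28. Cckar, the cholecystokinin A receptor, had 4.16, 8.48 and 8.50 in brainstem TRAP and 2.69 in every spinal TRAP array. Here preparation 1 was low and preparations 2 and 3 were high, and the difference of 4.36 became 5.80 without preparation 1.

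Mbl2, a mannose-binding lectin, had 8.97, 7.07 and 7.30 in brainstem TRAP against 3.09, 2.87 and 2.87 in spinal TRAP, and its difference of 4.84 was 4.24 without preparation 1. Gcnt2, a glycan-branching enzyme, had 7.41, 8.51 and 8.44 in brainstem TRAP against 3.04 in spinal TRAP. One of its 8 probe sets carried this signal, and the other 7 were near the bottom of the scale in both groups. The remaining genes of the 12 largest were Zar1, Gpx2, Pttg1 and Efcab10, with differences of 4.50, 4.28, 4.21 and 4.16 log2 units. All 12 were called under both scalings. Pttg1, the separase inhibitor securin, had 10.22 in brainstem TRAP array 1 against 13.11 and 13.12 in arrays 2 and 3, and its spinal TRAP arrays had 7.91 to 7.97. Without preparation 1 it was no longer called, because unbound brainstem RNA then exceeded TRAP.

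The largest called difference in the other direction was that of Sln, sarcolipin, a small inhibitor of the sarcoplasmic reticulum calcium pump. It had 2.89, 2.89 and 2.71 in brainstem TRAP, against 8.06, 8.37 and 7.68 in spinal TRAP. The difference was -5.21 ± 0.28 log2 units (adjusted p = 1.5e-27), at least 4.11-fold. Unbound RNA went the other way, with 7.12, 6.16 and 5.31 in brainstem and 2.71 in every spinal array. The other probe set of Sln lay near the bottom of the scale, at 2.34 in brainstem TRAP and 2.69 in spinal TRAP. Cfi, the complement factor I protease, had 3.82, 3.26 and 3.26 in brainstem TRAP, against 6.49, 6.99 and 7.29 in spinal TRAP, and lay at or below 2.40 in all unbound arrays.

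Enpep, an aminopeptidase that acts on angiotensin II, had 6.30, 4.98 and 4.98 in brainstem TRAP and 8.40, 8.40 and 8.36 in spinal TRAP. Cdhr1, a cadherin-related protein known from photoreceptors, had 6.50 in every brainstem TRAP array and 9.20, 9.20 and 9.17 in spinal TRAP. Saa1, an acute-phase serum amyloid, had 4.10, 3.62 and 3.62 in brainstem TRAP and 6.53, 6.57 and 6.57 in spinal TRAP. The others of the 12 were Hoxb5os, Hoxc5, Gm10710, Mctp2, 1700017N19Rik, Aldh1a7 and Coa4, between -3.19 for Hoxb5os and -2.48 for Coa4. All 12 were called under both scalings. Levels this close to the minimum of 6 give small folds, and the lower group was under 6 for 22 of the 51 genes called lower.

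Hox genes differed widely between the tissues, but under control probe scaling mostly outside the test. Among genes of paralog groups 5 to 13, 23 were on the array and 12 had a mean of at least 6 in a TRAP group. Of these 12, 2 were tested, because for the others TRAP did not exceed unbound RNA in either tissue. Hoxc5 was the 1 called lower in brainstem. Hoxa7 was tested but not called, since TRAP did not exceed unbound RNA in the spinal cord. Where the requirement of TRAP over unbound RNA was dropped, all 12 were tested and 10 were called lower in brainstem, against 1.58% of 8936 genes called lower and 37.2% called higher. The 10 were Hoxa9, Hoxc8, Hoxc10, Hoxd9, Hoxd8, Hoxa7, Hoxc9, Hoxd10, Hoxb6 and Hoxc5. Quantile normalization, with the requirement kept, let 8 be tested and called 6 lower and 0 higher, against 8.31% and 8.83% of all genes. The 6 were Hoxc8, Hoxd9, Hoxa7, Hoxc9, Hoxc5 and Hoxa5.

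Hoxa9 had 2.34 in each brainstem TRAP array, against 12.26, 12.26 and 12.08 in spinal TRAP. In unbound RNA it had 2.40 in brainstem and 13.13, 13.13 and 13.09 in spinal cord. Hoxc8 had 2.34 in each brainstem TRAP array, against 12.02, 12.23 and 12.02 in spinal TRAP, and 2.40 in unbound brainstem against 11.95, 12.04 and 12.41 in unbound spinal cord. For both genes all brainstem arrays lay at the bottom of the scale and all spinal arrays among high signals. Hoxc10 averaged 2.35 in brainstem TRAP and 8.97 in spinal TRAP. Hoxd9 averaged 2.34 in brainstem TRAP and 8.05 in spinal TRAP.

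Some genes of paralog groups 3 to 6 had signal in both tissues, and for several genes of groups 4 to 6 the brainstem preparations disagreed. Hoxb5 had 3.87, 11.37 and 11.70 in brainstem TRAP, against 9.95, 9.95 and 10.13 in spinal TRAP. Preparation 1 lay far below the spinal arrays and preparations 2 and 3 above them. In unbound RNA Hoxb5 had 8.16, 11.68 and 12.04 in brainstem and 11.71, 11.97 and 11.52 in spinal cord. Hoxc4 had 5.52, 10.30 and 10.30 in brainstem TRAP, against 7.81, 7.85 and 7.81 in spinal TRAP. Hoxc5 had 4.98, 8.19 and 8.48 in brainstem TRAP, against 10.32, 10.23 and 10.33 in spinal TRAP. Its difference was -3.08 ± 0.51 (adjusted p = 2.7e-07) and was -1.96 without preparation 1, still called. The other probe sets of Hoxc5 averaged 3.66 and 2.34 in brainstem TRAP and 4.97 and 2.73 in spinal TRAP, all under 6. Hoxb6 had 2.34, 5.17 and 5.41 in brainstem TRAP, against 7.54, 7.84 and 7.33 in spinal TRAP.

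Hoxb4 had 5.86, 7.33 and 7.38 in brainstem TRAP and 6.13, 6.13 and 6.24 in spinal TRAP. Of groups 1 to 4, 10 genes were on the array and 0 were tested with all arrays. Quantile normalization let 2 be tested, Hoxb4 and Hoxc4, and called 0, with differences of -0.13 and 0.01. Without preparation 1, 1 of these genes, Hoxc4, was tested and was called higher in brainstem, at 2.48, where 39.1% of genes were called higher and 1.59% lower. In every one of Hoxa4, Hoxb4, Hoxc4, Hoxb5, Hoxc5 and Hoxb6, brainstem array 1 was the lowest of the brainstem arrays in TRAP and in unbound RNA alike.

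**Figure D3:**
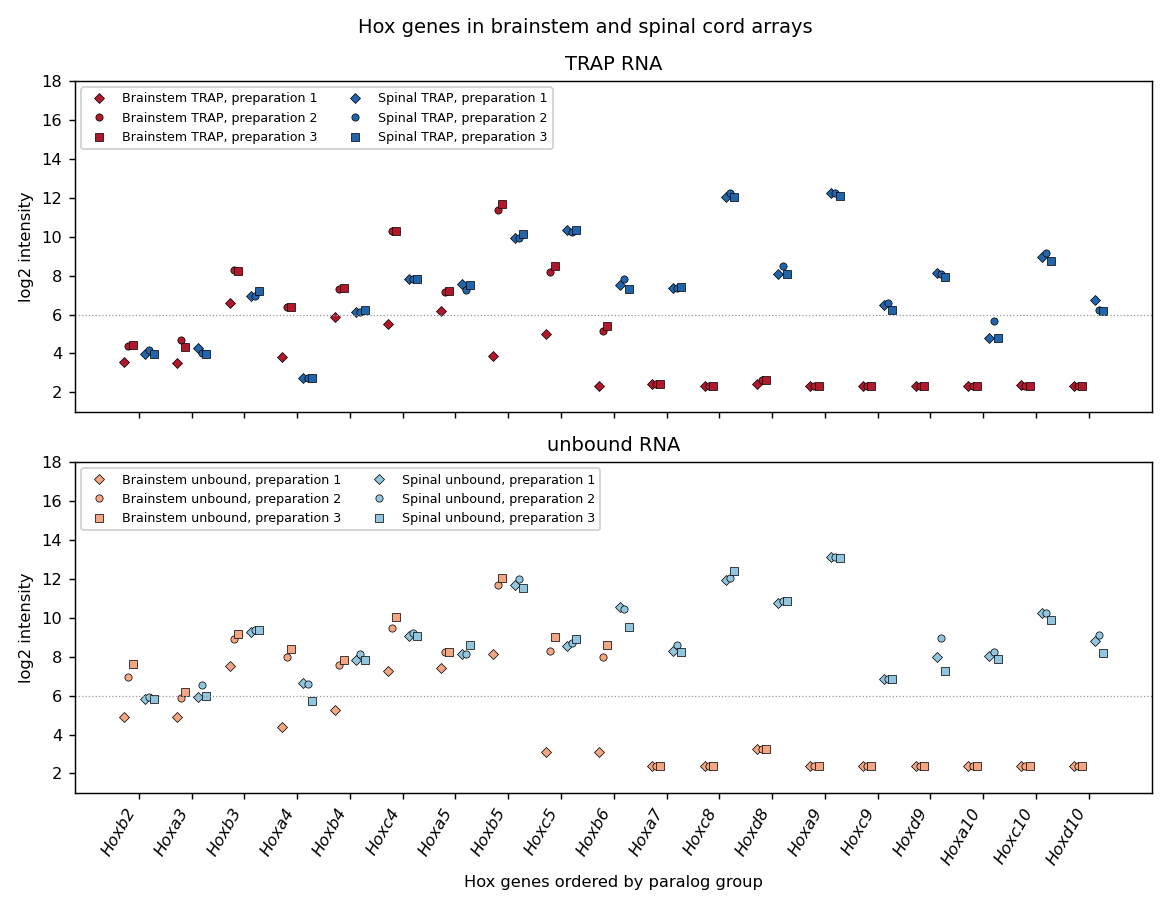
Log2 intensity of 19 Hox genes with a mean of at least 6 in one of the 4 groups, ordered by paralog group, in TRAP RNA (top) and unbound RNA (bottom). Brainstem arrays are drawn left of spinal arrays and symbols mark the preparation. Genes from Hoxa7 onward are near 2.4 in brainstem and higher in spinal cord to varying degrees, and brainstem preparation 1 (diamonds) is low for groups 4 to 6.

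Of 11 transcription factors and regulators listed for cranial motor neurons, 10 were on the array, 4 were tested and 3 were called higher, under both scalings, where 38.7% of all genes tested were called higher. The median difference of the 4 was 3.38, against 0.81 over all genes tested. Besides Tbx20 these were Eya1, a transcriptional cofactor of cranial development, and Tbx2, another T-box factor. Eya1 had 7.68, 5.67 and 5.19 in brainstem TRAP, against 2.69 in spinal TRAP. Tbx2 had 6.10, 5.79 and 6.20 in brainstem TRAP, against 2.75, 2.78 and 2.75 in spinal TRAP. Without preparation 1 the brainstem means of Tbx2 and Eya1 were under 6, so neither was tested, and of 2 genes tested 1 was called, the marker Tbx20. Rgs4, a regulator of G protein signalling, was tested and not called, at 12.73 to 12.86 in brainstem TRAP and 12.35 to 12.47 in spinal TRAP.

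Among 20 transcription factors of spinal motor neurons, 7 were tested, 3 were called higher and 2 lower in brainstem, against 38.7% and 1.24% of all genes tested. Quantile normalization turned this balance, with 1 called higher and 6 lower of 12 tested, against 8.83% and 8.31% of all genes. Without preparation 1 it was 3 higher and 0 lower, since both genes called lower fell short of 2-fold there. Nkx6-1, a progenitor-stage homeodomain factor, had 6.69, 6.30 and 6.27 in brainstem TRAP, against 3.43 in spinal TRAP, and was called under both scalings. Isl1, a LIM homeodomain factor of all motor neuron classes, had 12.53, 11.55 and 11.75 in brainstem TRAP, against 10.80, 10.43 and 10.56 in spinal TRAP. Its difference of 1.35 was 0.56 under quantile normalization and then not called. Esrrg, a nuclear receptor of gamma motor neurons, differed by 1.02 and was not called under quantile normalization, without brainstem TRAP array 2 or without spinal TRAP array 3.

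Isl2, the paralog of Isl1 in somatic motor neurons, had 4.41, 5.10 and 5.10 in brainstem TRAP, against 6.07 in each spinal TRAP array. It was called lower, like Mnx1, and like Mnx1 the call was lost without preparation 1, where the difference was -0.97. Lhx3, a LIM factor of medial motor column neurons, had 4.92, 5.06 and 5.39 in brainstem TRAP, against 6.02, 6.09 and 6.02 in spinal TRAP. Its difference of -0.92 did not reach 2-fold, but it was -1.83 and called under quantile normalization. Lhx4 had 7.32 to 7.97 in brainstem TRAP and 6.98 in spinal TRAP and was not called.

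Of 17 hallmark genes of motor neurons tested, 3 were called higher and 0 lower in brainstem, against 38.7% and 1.24% of all genes tested, with a median difference of 0.10, below the 0.81 of all genes tested. Calcb, the beta form of calcitonin gene-related peptide, had 14.52, 14.67 and 14.56 in brainstem TRAP and 14.16, 14.47 and 13.93 in spinal TRAP. Chodl, a membrane lectin of fast motor neurons, had 13.16, 13.03 and 12.86 in brainstem TRAP and 13.60, 13.52 and 13.54 in spinal TRAP. Uts2, urotensin 2, had 9.85, 10.51 and 10.85 in brainstem TRAP and 10.17, 11.30 and 10.15 in spinal TRAP, so its groups overlapped. Mmp9, a matrix metalloproteinase of fast motor neurons, had 8.50, 8.91 and 9.25 in brainstem TRAP and 9.07, 9.16 and 9.07 in spinal TRAP. The neurofilament genes Nefm and Nefh differed by 0.10 and 0.04 and also overlapped. Under quantile normalization 16 hallmark genes were tested, and the 2 called were Chodl and Slc5a7, both lower, at -1.08 and -1.09.

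The 3 genes called higher were Ache, Slc18a3 and Tns1. Ache, acetylcholinesterase, had 11.43, 12.26 and 12.42 in brainstem TRAP, against 9.91, 10.65 and 10.20 in spinal TRAP, a difference of 1.78 ± 0.25 (adjusted p = 4.9e-09). Slc18a3 had 13.16, 13.56 and 13.64 in brainstem TRAP, against 11.71, 12.25 and 11.75 in spinal TRAP, a difference of 1.55 ± 0.19 (adjusted p = 5.5e-11). Under quantile normalization these differences were 0.94 and 0.76, and neither was called. Tns1, the focal adhesion protein tensin, differed by 1.14 and was also lost under quantile normalization, and without brainstem TRAP array 2 or 3.

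Of 7 genes of acetylcholine handling that were tested, 3 were called higher and 0 lower, a share near the 38.7% of all genes called higher. Quantile normalization gave 1 higher and 1 lower of 8. Bche, butyrylcholinesterase, had 5.41, 6.35 and 6.35 in brainstem TRAP, against 2.81 in spinal TRAP. It was the 1 called under both scalings. Slc5a7, the high-affinity choline transporter, had 7.05 in each brainstem TRAP array and 7.47, 7.41 and 7.15 in spinal TRAP. Acly, which makes acetyl-CoA, and Prima1, the membrane anchor of acetylcholinesterase, differed by 0.30 and 0.19 and were not called. Genes listed for visceral and interneuron cholinergic cells were mostly not tested: 1 of 8 on the array was, Npr3, with 8.34 to 8.67 in brainstem TRAP and 8.61 to 8.94 in spinal TRAP. The summed intensity of the 8 was 1820 to 3082 in brainstem TRAP and 837 to 1149 in spinal TRAP. Where the requirement of TRAP over unbound RNA was dropped, 6 were tested and 5 were called higher, against 37.2% of all genes. These were Gad2, Zeb2, Gad1, Mpped2 and Nos1, with differences of 3.76, 2.86, 2.18, 1.64 and 1.43, all below unbound RNA in brainstem TRAP. Gad1 and Gad2, the enzymes of GABA synthesis, do not mark cholinergic cells. The part of other cells in these differences and in the sum was not tested.

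Neuropeptide genes held several of the strongest differences. Of 13 tested, 8 were called higher in brainstem and 0 lower, against 38.7% and 1.24% of all genes tested, with a median difference of 1.83. Quantile normalization gave 7 higher and 2 lower, against 8.83% and 8.31%. Vip, vasoactive intestinal peptide, had 11.37, 10.29 and 9.81 in brainstem TRAP, against 4.97 in spinal TRAP, a difference of 5.52 ± 0.43 (adjusted p = 9.4e-19), at least 22.5-fold. Unbound brainstem followed the same order over its arrays, with 10.30, 9.11 and 8.21. Gal, galanin, had 9.45, 11.80 and 12.11 in brainstem TRAP, against 6.23, 6.07 and 6.71 in spinal TRAP. Its difference was 4.78 ± 0.24 (adjusted p = 7.9e-29), 27.5-fold, and was 5.62 without preparation 1. The SD of its brainstem TRAP arrays was 1.46, and limma on the 6 TRAP arrays alone gave an adjusted p of 0.0046. Unbound RNA was not called, with 6.48 to 7.63 in brainstem and 6.70 to 7.31 in spinal cord (adjusted p = 0.39).

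Nts, neurotensin, had 10.51, 12.22 and 11.95 in brainstem TRAP, against 7.97, 9.57 and 8.04 in spinal TRAP, an 8.19-fold difference. Adcyap1, which encodes the peptide PACAP, had 8.47, 9.80 and 9.89 in brainstem TRAP, against 6.48, 6.68 and 6.31 in spinal TRAP, a 7.43-fold difference. Vgf, a secreted granule protein, had 11.13, 12.16 and 12.44 in brainstem TRAP, against 9.05, 9.54 and 9.14 in spinal TRAP. Unbound RNA differed in Vgf as much, with 11.70 to 12.04 in brainstem and 8.98 to 9.46 in spinal cord. Preparation 1 had the lowest brainstem TRAP value for each of these 3 genes and for Gal, and the highest for Vip.

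Nppb, brain natriuretic peptide, had 2.38, 7.47 and 8.19 in brainstem TRAP and 2.69 in each spinal TRAP array. Preparation 1 was thus below the spinal arrays, so the groups overlapped although the gene was called, at 3.33 with all arrays and 5.14 without preparation 1. Ucn, urocortin, a peptide of the Edinger-Westphal region, had 7.79 in every brainstem TRAP array, against 5.91, 6.12 and 5.92 in spinal TRAP. Nxph1, the ligand neurexophilin, differed by 1.83 and was not called under quantile normalization. Cartpt, the source of CART peptides, had 10.04, 12.01 and 12.07 in brainstem TRAP and 11.53, 11.78 and 11.82 in spinal TRAP. Pnoc, prepronociceptin, had 6.64 in brainstem TRAP and 7.10, 8.05 and 7.58 in spinal TRAP. Both were called lower under quantile normalization only. Crh was not tested, because unbound brainstem RNA, at 11.42 to 13.27, exceeded the 10.16 to 11.14 of brainstem TRAP.

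**Figure D4:**
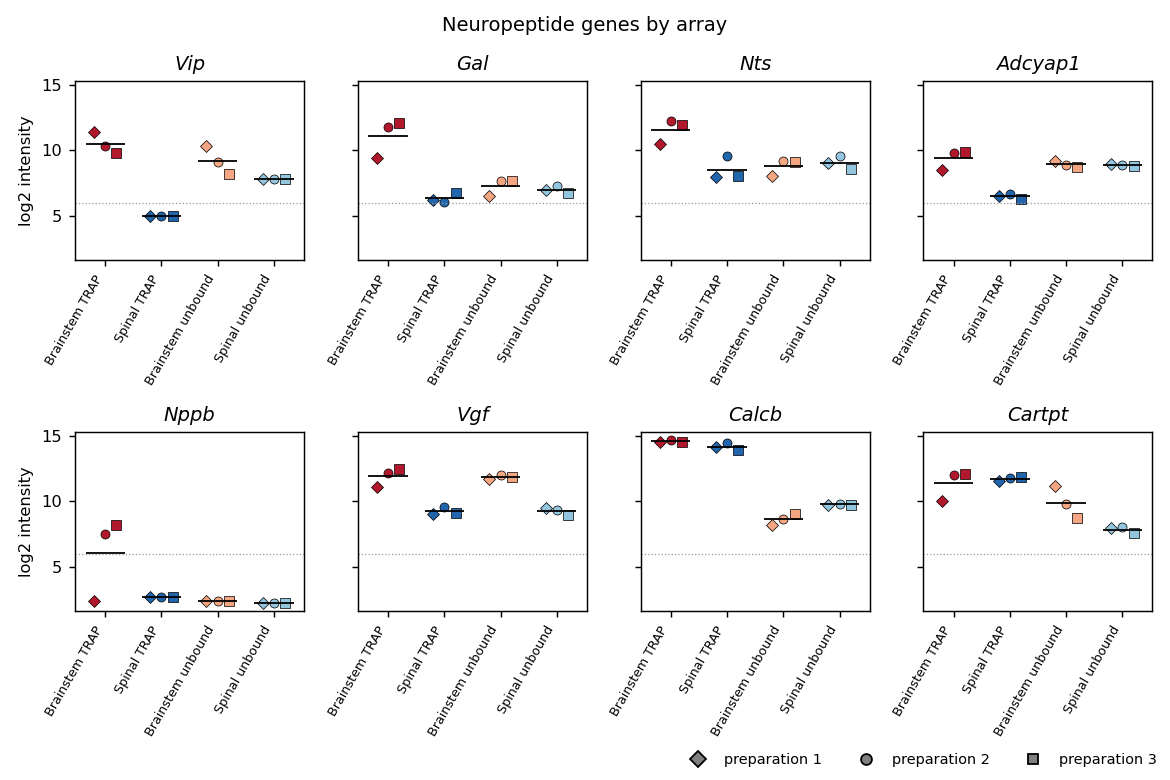
Log2 intensity of 8 neuropeptide genes in every array, in the same layout as the plot of markers. Vip, Gal, Nts, Adcyap1 and Vgf are higher in all brainstem TRAP arrays than in any spinal TRAP array, Nppb is low in brainstem preparation 1, and Calcb is close to 14 in both TRAP groups.

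Among potassium and HCN channel genes, 10 of 30 on the array were tested, 4 were called higher and 0 lower in brainstem, a share near the 38.7% of all genes called higher, with a median of 0.73. Kcna5, a delayed rectifier subunit, had 7.55, 10.46 and 10.50 in brainstem TRAP, against 5.48, 5.39 and 5.48 in spinal TRAP, at least 11.3-fold. Its difference of 4.06 was 5.03 without preparation 1. Unbound RNA was not higher in brainstem, with 6.86 there and 7.28 to 7.75 in spinal cord. Kcnj9, a G protein-gated inward rectifier, had 7.62, 9.25 and 9.62 in brainstem TRAP, against 6.20 in spinal TRAP. Both held under quantile normalization. Kcnc4 and Kcnip4 differed by 1.05 and 1.02 and did not. Both also lost their call without brainstem TRAP array 2, Kcnc4 without brainstem array 3 or spinal array 2, and Kcnip4 without spinal array 1 or 3. Kcnk3, a two-pore leak channel of motor neurons, had 10.54 to 10.65 in brainstem TRAP and 10.34 to 10.66 in spinal TRAP. Of 5 sodium and calcium channel genes tested, 0 were called in either direction under either scaling, and their median was 0.37. Before adjustment, 3 of the 5 had a limma p under 0.05, but no difference reached 2-fold. With the requirement of TRAP over unbound RNA dropped, Cacna1g and Cacna1h differed by 0.70 and 0.67 (limma adjusted p = 0.013 and 0.018). Both stayed uncalled there because they fell short of 2-fold.

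Of 48 transmitter receptor genes on the array 10 were tested, and 3 were called higher and 0 lower in brainstem, with a median of 0.70, where 38.7% of all genes were called higher. Quantile normalization gave 4 higher and 2 lower of 20. Htr3a, the ion channel subunit of the serotonin receptor, had 6.42, 6.51 and 7.19 in brainstem TRAP, against 2.69 in spinal TRAP. Chrna3, the nicotinic subunit of autonomic synapses, had 6.20, 7.06 and 7.13 in brainstem TRAP, against 2.80 in spinal TRAP. Unbound RNA lay near the bottom of the scale in both tissues for Htr3a, at 2.40 in brainstem and 2.21 in spinal cord. Glra1, the main adult glycine receptor subunit, differed by 1.18 and was not called under quantile normalization or without brainstem TRAP array 2. Without preparation 1 its difference was 1.43, but it was no longer tested. Htr1d, a serotonin receptor coupled to inhibition, had 7.92, 6.50 and 6.33 in brainstem TRAP and 7.54, 7.47 and 7.57 in spinal TRAP. Preparation 1 lay above the spinal arrays and the others below, and without it Htr1d was called lower, at -1.11. Trhr, the receptor of thyrotropin-releasing hormone, had 9.72 to 9.79 in brainstem TRAP and 9.48 to 10.35 in spinal TRAP.

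For trophic factors and their receptors, 4 of 8 genes tested were called higher and 1 lower, against 38.7% and 1.24% of all genes, with a median of 1.00. Cntfr, the receptor of ciliary neurotrophic factor, had 7.25, 8.71 and 8.57 in brainstem TRAP, against 5.35 in spinal TRAP. Nrtn, the ligand neurturin, had 8.11, 8.21 and 8.11 in brainstem TRAP, against 5.96, 6.14 and 5.96 in spinal TRAP. Both were called under both scalings. Gfra4, the receptor subunit that binds persephin, and Fgfr1 differed by 1.42 and 1.26 and were lost under quantile normalization. Igf2r, the receptor that clears insulin-like growth factor 2, had 5.33 to 5.34 in brainstem TRAP, against 6.45 in spinal TRAP, and was called lower under both. Ret and Gfra1, which together bind GDNF, had differences of 0.30 and 0.37 and were not called.

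Of 16 axon guidance and adhesion genes tested, 4 were called higher and 1 lower, against 38.7% and 1.24% of all genes, with a median of 0.64. Pcdh19, a protocadherin, had 9.02, 9.52 and 9.57 in brainstem TRAP, against 7.23, 7.56 and 7.19 in spinal TRAP, and held under both scalings. Sema3c, Cdh13 and Unc5a, with differences of 1.34, 1.09 and 1.03, did not. Cdh13 was also lost without brainstem TRAP array 2 or 3 or spinal TRAP array 1. Cdh6, a classical cadherin, had 8.02, 7.95 and 7.87 in brainstem TRAP, against 9.24, 9.51 and 8.70 in spinal TRAP, and was called lower under both. Quantile normalization gave 2 higher and 7 lower of the 29 genes it let be tested.

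In the next 3 lists the share called higher was below the 38.7% of all genes. Of 9 neurofilament and axonal cytoskeleton genes tested, 1 was called higher, Tubb3, with 13.39, 13.78 and 14.20 in brainstem TRAP, against 12.59, 13.01 and 12.42 in spinal TRAP. Of 12 genes linked to amyotrophic lateral sclerosis that were tested, 1 was called higher, Pfn1, the actin-binding protein profilin, with a difference of 1.25 and a list median of 0.67. Sod1, superoxide dismutase, had 16.01, 15.83 and 15.84 in brainstem TRAP and 15.09, 14.94 and 15.09 in spinal TRAP, a difference of 0.85, close to that of the typical gene. Of 4 calcium-binding protein genes tested, 1 was called higher, S100b, with 14.10 to 14.20 in brainstem TRAP and 12.73 to 12.89 in spinal TRAP. None of these 3 calls held under quantile normalization, and that of Tubb3 was also lost without brainstem TRAP array 3 or spinal TRAP array 3.

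**Figure D5:**
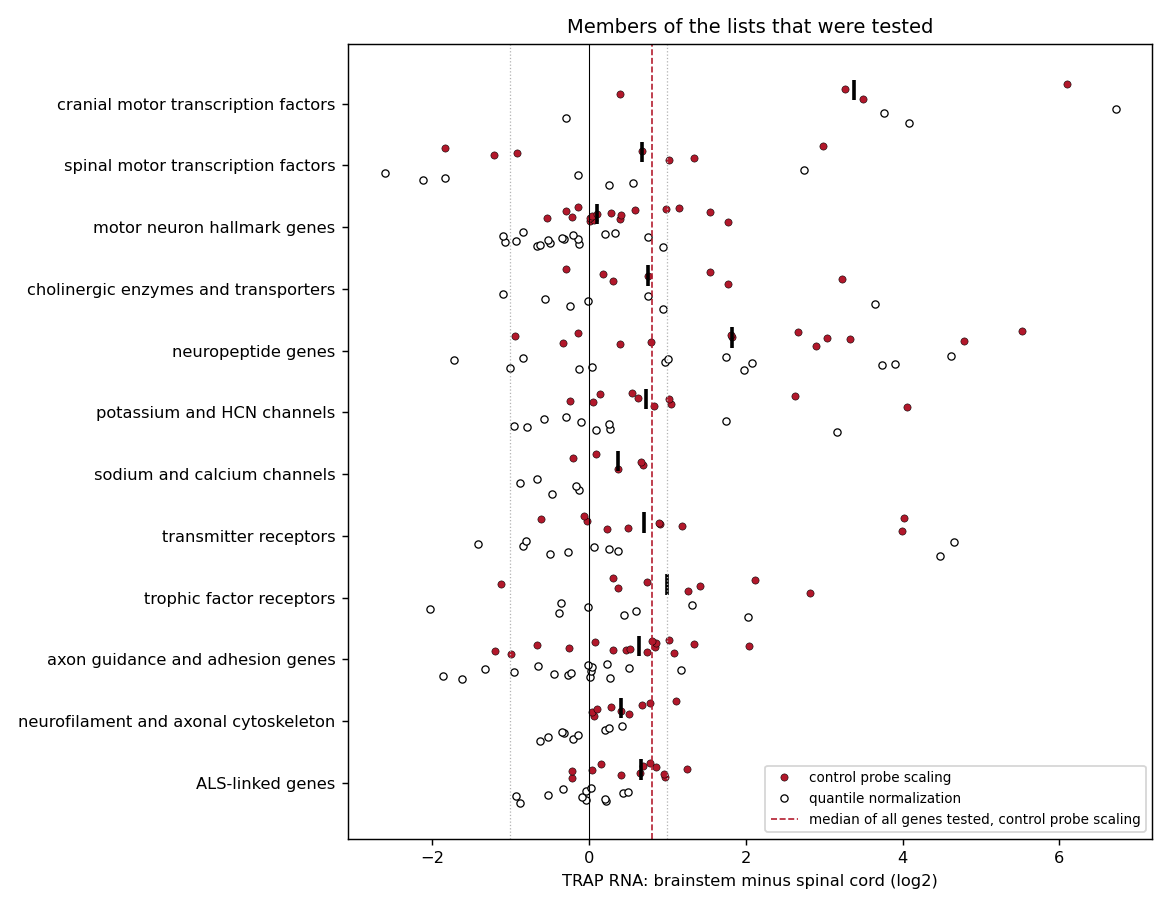
Brainstem minus spinal cord difference of the tested members of 12 gene lists in TRAP RNA, in log2 units, after control probe scaling (red) and after quantile normalization (open). Black bars are list medians under control probe scaling, the dashed line is the median of all genes tested (0.81) and dotted lines mark a 2-fold change. Cranial transcription factors and neuropeptide genes reach furthest to the right, and hallmark genes have a median of 0.10.

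Markers of other cells differed between the TRAP groups, and their part in the results above was not tested. For monoaminergic neurons the summed intensity of 13 genes was 1548 to 2704 in brainstem TRAP and 213 to 222 in spinal TRAP. Of these, Nr4a2 was called and Tph2, the serotonin-synthesising enzyme, was tested and not called. Nr4a2 does not set monoaminergic cells apart in this series. Its mean was at least 6 in 21 of the 24 TRAP populations, and brainstem motor neurons ranked 15 among them. Tph2 had 5.87, 8.11 and 7.70 in brainstem TRAP and 2.70 in spinal TRAP, against 9.39, 11.19 and 10.28 in unbound brainstem. Slc6a2, the noradrenaline transporter, was near the bottom of the scale in all arrays. The 6 GABA and glycine neuron genes summed to 1856 to 2730 in brainstem TRAP and 434 to 1016 in spinal TRAP, with 0 tested. The 7 genes of excitatory neurons summed to 1573 to 2466 in brainstem TRAP and 598 to 848 in spinal TRAP, with 0 tested, and Slc17a7 was near the bottom of the scale in both. The 10 cerebellar genes summed to 4516 to 6700 in brainstem TRAP and 3166 to 3304 in spinal TRAP, with 2 tested and 0 called, and Pax6 and Zic2 were near the bottom of the scale in TRAP RNA of both. Where the requirement of TRAP over unbound RNA was dropped, all 4 monoaminergic genes tested were called higher, against 37.2% of all genes. So were 3 of 4 GABA and glycine, 4 of 5 cerebellar and 1 of 1 excitatory genes, with 0 called lower.

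The 6 Schwann and ependymal genes summed to 5426 to 16402 in brainstem TRAP and 138 to 199 in spinal TRAP. Ttr alone made up most of this, with 12.40, 13.15 and 14.00 in brainstem TRAP and 6.70, 7.37 and 6.82 in spinal TRAP, and it was below unbound RNA in brainstem. Astrocyte genes, 15 on the array, summed to 28078 to 33512 in brainstem TRAP and 14862 to 19284 in spinal TRAP, with S100b the 1 tested and called. Strong genes such as S100b weigh most in this sum, and the median difference of the 15 was -0.09. Where the requirement of TRAP over unbound RNA was dropped, 12 were tested, with 3 called higher and 2 lower, against 37.2% and 1.58% of all genes. Gfap, the astrocyte filament protein, had 6.29, 4.12 and 4.26 in brainstem TRAP and 7.46, 8.75 and 8.02 in spinal TRAP, but 10.56 to 11.39 in unbound brainstem and 12.54 to 13.36 in unbound spinal cord. The 14 oligodendrocyte genes summed to 12746 to 22453 in brainstem TRAP and 21432 to 38512 in spinal TRAP, with 0 tested. Strong genes weigh most in this sum too, and the median difference of the 14 was 0.34. With the requirement dropped, 12 were tested, with 4 called higher and 1 lower, against 37.2% and 1.58% of all genes. The 12 microglial genes summed to 115 to 301 in brainstem TRAP and 254 to 516 in spinal TRAP, with 0 tested, and P2ry12 and Cd68 were near the bottom of the scale in both. Of 14 vessel and meningeal genes 1 was tested and called, Dcn, the matrix protein decorin, with 9.95 to 10.46 in brainstem TRAP and 6.86 to 7.84 in spinal TRAP. Col1a2 and Pecam1, also on that list, were near the bottom of the scale in brainstem TRAP.

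Whether the TRAP difference departs from the tissue difference was tested as an interaction, brainstem TRAP minus unbound less the same in spinal cord. It was called higher for 1158 of the 4101 genes (28.2%) and lower for 86 (2.10%), 30.3% in either direction, and under quantile normalization for 437 higher and 942 lower. The comparison shares its TRAP arrays with the one above. Among the largest were Shox2 (6.41) and Tbx20 (5.61), and in the other direction Sln (-8.70). Bche (4.96) had 5.79 in unbound brainstem and 7.38 to 7.76 in unbound spinal cord, so it was far below unbound RNA in spinal TRAP. Crabp1, a retinoic acid-binding protein, had 5.19, 8.21 and 8.22 in brainstem TRAP and 3.41, 4.47 and 3.41 in spinal TRAP, against 5.67 to 6.86 in unbound brainstem and 6.92 to 7.82 in unbound spinal cord. Cfi, Aldh1a7, Ccdc167, C1ql2 and Cdr1os completed the lower side, of which C1ql2, a complement-like synaptic protein, had 6.56 to 7.42 in brainstem TRAP and 7.82 to 8.29 in spinal TRAP, a TRAP call that was lost in 5 of 29 alternatives, among them the fit without brainstem array 2.

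Across the 24 TRAP populations of the series, some of these genes were measured in few and others in many. Tbx20, Cckar and Mbl2 had a mean of at least 6 in brainstem motor neurons and in 0 others. Cfi, Mctp2, Saa1 and 1700017N19Rik had such a mean in spinal cholinergic neurons, with the highest mean outside these 2 populations at 4.53 for Saa1. Enpep averaged 8.38 in spinal cholinergic neurons, with 5.96 in cortical layer 5a neurons. Gm10710 barely passed 6 in spinal cholinergic neurons, at 6.19, and averaged 5.89 in striatal cholinergic neurons and 5.46 in basal forebrain cholinergic neurons. Mnx1, Prph and Hoxc5 had it in these 2 populations, with the next highest mean at 3.56. Shox2 had it in brainstem motor neurons and in striatal cholinergic neurons, where it averaged 6.57. Sln was highest in cerebellar unipolar brush neurons, at 14.94, and Vip in cortical Pnoc neurons, at 14.70. Nr4a2, Pttg1 and Gcnt2 had a mean of at least 6 in 21, 23 and 12 populations, and Nr4a2 was lowest in spinal cholinergic neurons. Zar1 and Efcab10 were highest in striatal cholinergic neurons, at 10.86 and 9.72, and Gpx2 in basal forebrain cholinergic neurons, at 7.61. Gal averaged 11.12 in brainstem motor neurons and 10.83 in basal forebrain cholinergic neurons. The genes had been chosen for their difference between the 2 populations, so these levels are a description.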

How the data were processed

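RNA from TRAP and unbound fractions was amplified in 2 cycles, labelled with biotin and hybridised to Affymetrix arrays of 45101 probe sets. The deposited numbers are linear intensities, made by the authors (GCRMA is named in the submitters' processing notes, its version is not given in the sources used here), with replicates normalized within a group. GCRMA sets weak signals to shared values, and 55.9% of probe sets in brainstem TRAP and 58.5% in spinal TRAP were identical in all 3 arrays (7.71% and 10.9% of the genes tested). This narrows their spread and shrinks p-values.

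Here intensities were floored at 1, turned into log2 values and shifted by 1 constant per group to equalise 18 biotinylated control probe sets, a scaling that the series' design text recommends together with a filter on TRAP against unbound signal. Of the probe sets, 34958 carried 1 gene symbol, 932 several and 9211 none in the platform annotation. The probe set with the highest mean stood for a gene (18193 genes, 9010 with several probe sets). limma 3.58.1 in R 4.3.3 (data.table, version 1.17.8) fitted all 107 arrays with 1 coefficient per population and fraction (41 in all, 66 residual degrees of freedom), then eBayes with trend and Benjamini-Hochberg adjustment over the genes tested. The minimum mean was 6 (an intensity of 64). The number of arrays limits the precision. On simulated arrays for the TRAP comparison, 96% of genes changed by 1.5 log2 units and 97% of those changed by 3 were called. There were 100 changed genes per size, 3560 genes tested and 0 false calls. The 2-fold bound makes calls of unchanged genes rare, so this 0 does not measure errors from the scaling or from a deviating array.

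Named genes are the markers and the driver, members of 25 gene lists (491 genes, 443 on the array), the 12 largest called differences per direction with non-overlapping arrays, and the 6 largest called interactions per direction also called in TRAP. Genes brought in beside a result (Slc6a3, Gabra6, Ttr) were chosen after their values were seen, as were 4 promoters. The members and lists were chosen with earlier results of these data known. Replicate numbers did not pair the tissues: the deviations of same-numbered brainstem and spinal TRAP arrays correlated at 0.04 to 0.09. Within a tissue, same-numbered TRAP and unbound arrays correlated at 0.49 to 0.63 in brainstem, where preparation 1 stands apart, and at -0.21 to -0.01 in spinal cord. The interaction was fitted without this pairing, and a fit with it is among the alternatives.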

Additional observations from a re-analysis of the deposited data

Results flagged for a closer look

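The interaction tested whether the TRAP difference between brainstem and spinal cord departs from the difference in unbound RNA, and it was called higher for 1158 genes and lower for 86 of 4101. The named genes with the largest called values, in log2 units, were Shox2 (6.41), Tbx20 (5.61), Bche (4.96), Kcna5 (4.67), Gal (4.52) and Crabp1 (4.46) on the higher side. On the lower side they were Sln (-8.70), Aldh1a7 (-3.78), Cfi (-3.67), Ccdc167 (-3.32), C1ql2 (-3.21) and Cdr1os (-2.80). Sln was higher in unbound brainstem than in unbound spinal cord and lower in brainstem TRAP than in spinal TRAP. No group held 4 or more arrays, so single arrays were not set against Dixon's limits.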

How the results depend on the processing

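Counts of called genes moved with the scaling and the filters, and the cause was not tested unless the setting itself gives it. With no further scaling, the TRAP comparison gave 2455 higher and 23 lower, unbound RNA 579 higher, and the interaction 2297 higher and 34 lower. Quantile normalization gave 545 and 513 for TRAP and 437 and 942 for the interaction. Setting the medians of the genes tested equal, an alternative chosen after seeing the data, gave 141 and 269 for TRAP and 129 and 476 for the interaction. Without a minimum of expression, more genes were tested, with 243 lower in TRAP, 1368 and 1265 in unbound RNA and 684 lower in the interaction. A minimum mean of 8 tested fewer, with 27 lower in TRAP, 566 and 432 in unbound RNA and 35 lower in the interaction. The mean of all probe sets gave 32 lower in TRAP and 504 lower in unbound RNA. The stricter test of limma's treat against a 2-fold bound gave 625 and 26 in TRAP, 228 and 253 in unbound RNA, and 281 and 26 in the interaction. Dropping the requirement of TRAP over unbound RNA gave 3321 and 141 in TRAP, and raising it to 1.5-fold gave 815 higher. Leaving out 1 array at a time gave 1468 to 1765 higher and 47 to 65 lower in TRAP, 761 to 1081 and 726 to 827 in unbound RNA, and 1016 to 1371 and 82 to 100 in the interaction. Without brainstem TRAP and unbound preparation 1, a setting added after seeing the data, TRAP gave 1602 and 65. With the replicate number as a block, TRAP gave 1569 and 49, unbound RNA 857 and 724, and the interaction 1075 and 82; the block for the interaction was the preparation within each tissue. Of the 66 named genes called in TRAP, 0 changed direction in any setting that tested them. Uncalled differences did: Prph was -0.34 under quantile normalization, and Cartpt and Hoxb5 were 0.33 and 1.52 without preparation 1, against -0.33 and -1.03 with it. Calls lost were Mnx1, Nppb, Tns1, Unc5a and Cdh13 in the fit on the 6 TRAP arrays alone, Hoxc5, C1ql2, Tns1 and Glra1 in that on the 12 arrays alone, C1ql2, Tns1, Glra1 and Unc5a with the block, and Mnx1 and Isl2 without preparation 1. Tbx2, Eya1, Pttg1 and Glra1 were not tested without preparation 1, so their calls were absent there too. Genes near the minimum of the scale have the least certain levels.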

Other observations

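Brainstem preparation 1 differed from preparations 2 and 3 in genes outside the lists. Galc, the lysosomal galactosylceramidase, had 3.17 in brainstem TRAP array 1 against 8.85 and 8.45 in arrays 2 and 3, and 2.71 against 8.25 and 8.35 in unbound RNA. Lhx9, a LIM homeodomain factor, had 7.11 in TRAP array 1 against 4.89 and 3.02, and 10.08 in unbound array 1 against 8.81 and 4.86. Eif2s3y, a gene of the Y chromosome, had 4.16 in TRAP array 1 against 6.15 and 7.59, and 2.40 in unbound array 1 against 7.10 and 8.83. These genes were picked from the data and have no test.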
